A study of Arabidopsis thaliana with 15 samples.

Results

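The Aurora kinase genes AUR1, AUR2 and AUR3 of Arabidopsis thaliana were followed on 15 arrays of whole seedlings in which FAMA or FAMA-EAR was induced. The genes were taken by symbol, as probe sets (groups of short probes that read 1 transcript) that name a single gene. Each symbol had 1 such probe set, so the 3 genes were 3 of 13350 named genes on the array. AUR1 (AT4G32830) lies on chromosome 4 from 15842443 to 15844865 in TAIR10.1. AUR2 (AT2G25880) lies on chromosome 2 from 11034652 to 11038191. AUR3 (AT2G45490) lies on chromosome 2 from 18747509 to 18749215.

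Aurora kinases are protein kinases of mitosis: their transcripts, and those of many of their partners, are made mainly in dividing cells. In Arabidopsis, AUR1 and AUR2 form the alpha class, which is found on the spindle and the forming cell plate and helps to set the plane of formative divisions. AUR3 forms the beta class, is found at centromeres during mitosis and phosphorylates histone H3. FAMA, a transcription factor of the basic helix-loop-helix family, works at the last step of stomatal formation, where it stops the division of the guard mother cell and promotes guard cell identity.

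The seedlings were of the Columbia ecotype and grew under continuous light at 22 °C until day 5. Induced seedlings then went onto medium containing 10 µM estrogen, and control seedlings onto fresh medium lacking it. There were 3 arrays in each of 5 groups. The FAMA 4 h and FAMA 48 h groups carried an estrogen-inducible FAMA construct and were collected 4 h or 48 h after transfer. The FAMA-EAR 48 h group had FAMA fused to the EAR repression domain, induced with the same estrogen for 48 h. The control 4 h and control 48 h groups received no estrogen, and their genotype beyond the ecotype is not given in the labels. Seedlings at 4 h are labelled 5 days old and those at 48 h 7 days old. Estrogen and construct therefore cannot be told apart in any comparison with a control, while FAMA 48 h against FAMA-EAR 48 h holds estrogen and time equal. Those 2 groups still differed in construct, in the signal of the FAMA probe set and in measures of RNA quality, as given below. The labels do not say that the 3 arrays of a group came from separate cultures or lines, so the p-values cover the spread among the arrays, which may be technical.

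The signal of the FAMA probe set (symbol FMA in the annotation) was 11695.5 to 12830.6 on the FAMA 4 h arrays and 16934.1 to 18576.3 on the FAMA 48 h arrays. It was 2726 to 3456.5 on the FAMA-EAR 48 h arrays, against 230.3 to 255.7 on the control 4 h arrays and 229.6 to 255 on the control 48 h arrays. The root gene PYK10 had signals of 10990.1 to 13270 on the FAMA 48 h arrays and 16914.1 to 21454 on the arrays of the other groups. The green tissue gene LHCB4.1 had signals of 12056.2 to 13733.6 on the FAMA 48 h arrays and 17156.6 to 23083.9 on those of the other groups. Both were thus lowest on the FAMA 48 h arrays, and the part of this in the Aurora results was not tested. The third FAMA 4 h array stood apart: its median signal was 239.5 and its mean rank correlation with the other arrays of its group was 0.929. For the Aurora kinase genes, the 4 h changes and the differences between times that passed are given with and without it. In whole seedlings, fewer dividing cells and less Aurora transcript per dividing cell cannot be told apart.

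Signals are MAS5 intensities on a linear scale. AUR1 and AUR2 lay in the middle to upper part of each array's signals, and AUR3 lay in the lower to middle part. AUR1 was at percentile 65.7 to 79 of the probe sets of an array, AUR2 at percentile 46.4 to 76.7 and AUR3 at percentile 34.7 to 49.1. These percentiles place each probe set on its own array and do not rank the 3 genes against each other, because probe sets differ in brightness.

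After 48 h of induction, AUR1 and AUR3 were lower in FAMA seedlings than in control seedlings. AUR2, the closest relative of AUR1, had a smaller difference in the same direction that did not pass the test. AUR1 had signals of 434.8, 396.4 and 420.2 on the FAMA 48 h arrays, against 649, 540.5 and 685.7 on the control 48 h arrays. All 3 FAMA 48 h arrays were below all 3 control 48 h arrays for this alpha-class kinase. AUR3 had signals of 99.4, 79.5 and 92.2 on the FAMA 48 h arrays, against 154.2, 165.9 and 161.8 on the control 48 h arrays. For AUR3, the beta-class kinase, the groups did not overlap either, and the control arrays lay close together. AUR2 had signals of 344.7, 419.5 and 297 on the FAMA 48 h arrays, against 421.8, 435.5 and 441.5 on the control 48 h arrays. The AUR2 groups were separated by a gap that was small beside the spread of the FAMA 48 h arrays. Here and below, separation of 3 arrays from 3 is a description only, since its share over all probe sets is not given.

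**Figure D1:**
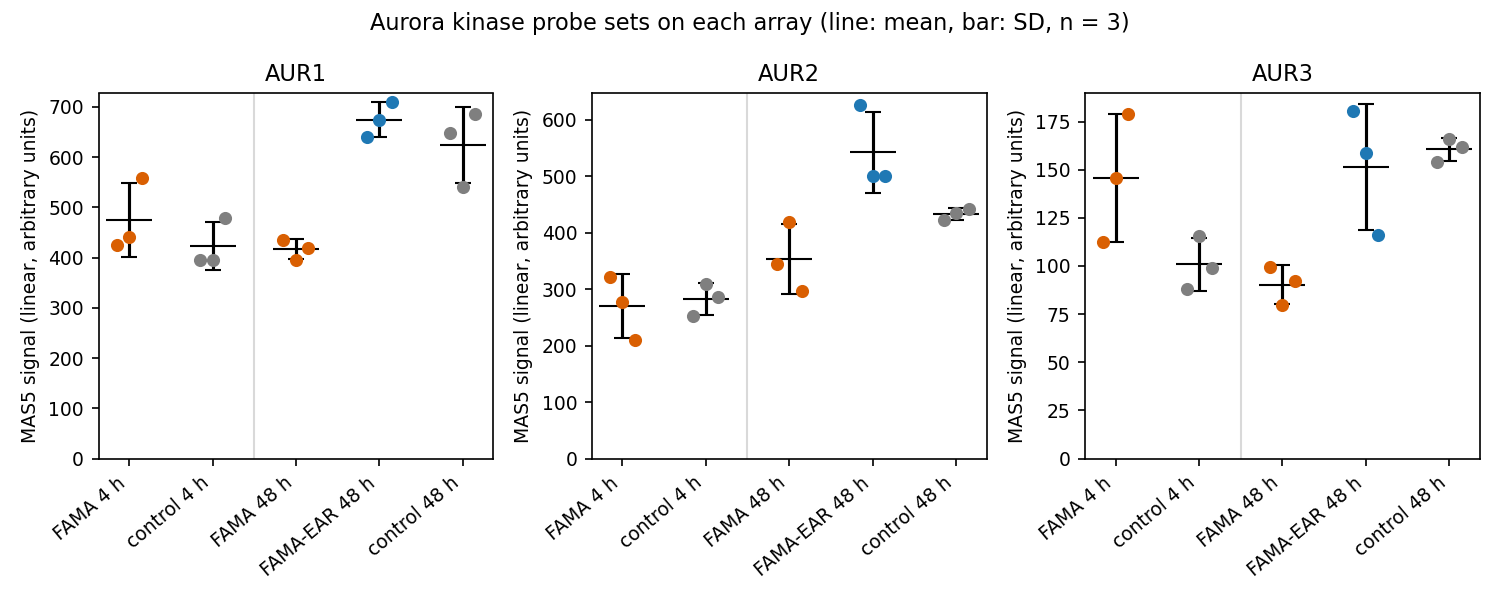
MAS5 signal (linear, arbitrary units, axis from 0) of AUR1, AUR2 and AUR3 on each of the 15 arrays. Points are arrays, horizontal lines are means and vertical bars are SD (n = 3 a group). AUR1 and AUR3 are lower on all 3 FAMA 48 h arrays than on all 3 control 48 h arrays.

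Differences were tested with limma on log2(signal + 20), a scale that understates fold changes of dim probe sets, with Benjamini-Hochberg adjustment over 22746 probe sets and a threshold of 0.05. AUR1 averaged 417.1 ± 19.4 in FAMA 48 h seedlings and 625.1 ± 75.5 in control 48 h seedlings (SD, n = 3 each). Its log2 fold change was -0.56 ± 0.122 (SE; adjusted p = 0.00187 in limma). AUR3 averaged 90.4 ± 10.1 in FAMA 48 h seedlings and 160.6 ± 5.94 in control 48 h seedlings (SD, n = 3 each). Its log2 fold change was -0.71 ± 0.209 (SE; adjusted p = 0.0162 in limma). AUR2 averaged 353.7 ± 61.7 in FAMA 48 h seedlings and 432.9 ± 10.1 in control 48 h seedlings (SD, n = 3 each). Its log2 fold change was -0.29 ± 0.153 (SE; adjusted p = 0.213 in limma), with a 95% interval from -0.61 to 0.03, which includes the estimate for AUR1. Whether AUR2 differed from AUR1 in its response was not tested.

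Thus 2 of the 3 Aurora kinase genes passed the test, both lower, where 11% of all probe sets passed as lower, 10.6% as higher and 21.6% in either direction. Among all probe sets, AUR1 was at percentile 10.2 of log2 fold changes, AUR2 at percentile 25.2 and AUR3 at percentile 5.5. The fall of AUR1 passed in all 23 alternatives, which were 8 other processing settings and 15 fits that each left out 1 array. The fall of AUR3 passed in all 8 processing settings but not without the second control 48 h array (adjusted p = 0.0512) or the second FAMA 48 h array (adjusted p = 0.0732). The AUR2 difference kept its negative sign in all 23 and passed in none.

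**Figure D2:**
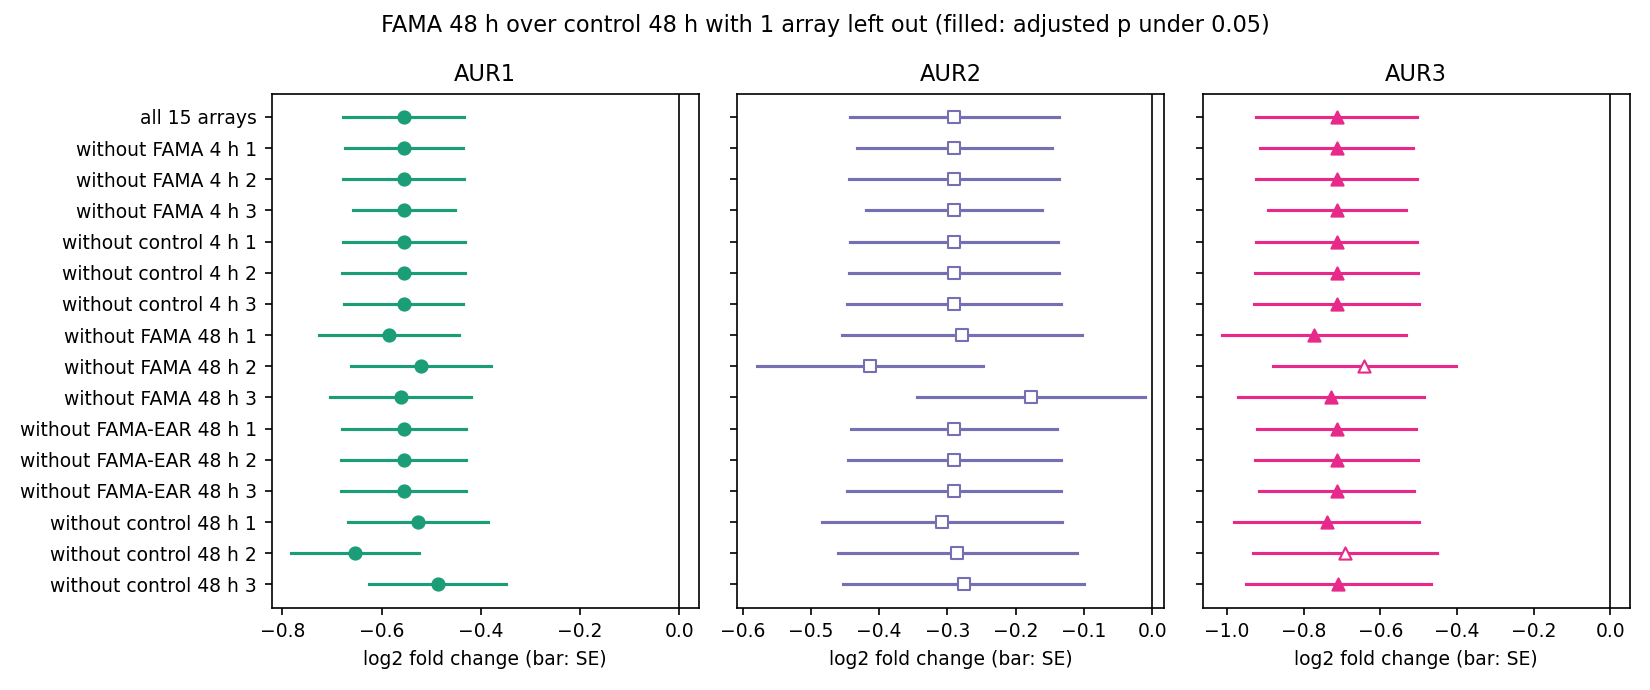
Log2 fold change of FAMA 48 h over control 48 h for AUR1, AUR2 and AUR3 (x axis, points with SE bars), with all 15 arrays in the top row and with 1 named array left out in each row below. Filled points have an adjusted p under 0.05. AUR1 is filled in every row, AUR3 is open in 2 rows and AUR2 is open throughout.

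Against FAMA-EAR seedlings of the same age and estrogen dose, all 3 Aurora kinase genes were lower in FAMA seedlings. AUR1 had signals of 434.8, 396.4 and 420.2 on the FAMA 48 h arrays, against 641, 673.9 and 710.1 on the FAMA-EAR 48 h arrays. AUR2 had 344.7, 419.5 and 297 on the FAMA 48 h arrays, against 625.6, 500.6 and 500.6 on the FAMA-EAR 48 h arrays. AUR3 had 99.4, 79.5 and 92.2 on the FAMA 48 h arrays, against 180.4, 158.4 and 116.1 on the FAMA-EAR 48 h arrays. None of the 3 genes overlapped between these groups, although the third FAMA-EAR 48 h array lay close to the FAMA 48 h arrays for AUR3. The share of all probe sets that separate in this way is not given here.

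The log2 fold change of FAMA 48 h over FAMA-EAR 48 h was -0.67 for AUR1 (95% interval -0.92 to -0.41; adjusted p = 0.000275 in limma). It was -0.59 for AUR2 (95% interval -0.91 to -0.28; adjusted p = 0.00609 in limma). It was -0.62 for AUR3 (95% interval -1.06 to -0.19; adjusted p = 0.0348 in limma). The 3 intervals overlapped broadly. In this comparison 11.6% of all probe sets passed as lower, 11.1% as higher and 22.7% in either direction. The AUR1 call held in all 23 alternatives. The AUR2 call ended only without the third FAMA 48 h array (adjusted p = 0.0514). The AUR3 call ended without any 1 of the 3 FAMA 48 h arrays, and without the first or second FAMA-EAR 48 h array, with adjusted p between 0.0534 and 0.157.

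No Aurora kinase gene passed the test between FAMA-EAR 48 h and control 48 h seedlings. AUR1 averaged 675 ± 34.6 in FAMA-EAR 48 h seedlings and 625.1 ± 75.5 in control 48 h seedlings (SD, n = 3 each), a log2 fold change of 0.11 (95% interval -0.14 to 0.37; adjusted p = 0.758 in limma). AUR2 averaged 542.3 ± 72.2 in FAMA-EAR 48 h seedlings and 432.9 ± 10.1 in control 48 h seedlings (SD, n = 3 each). All 3 FAMA-EAR 48 h arrays were above the controls for AUR2, but the log2 fold change of 0.30 did not pass (95% interval -0.01 to 0.62; adjusted p = 0.364 in limma). AUR3 averaged 151.6 ± 32.7 in FAMA-EAR 48 h seedlings and 160.6 ± 5.94 in control 48 h seedlings (SD, n = 3 each), a log2 fold change of -0.09 (95% interval -0.53 to 0.34; adjusted p = 0.915 in limma). In this comparison 3.2% of all probe sets passed, 1.39% as higher and 1.81% as lower. The intervals do not show that FAMA-EAR left the genes unchanged, since they reach 0.37 for AUR1, 0.62 for AUR2 and -0.53 for AUR3.

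**Figure D3:**
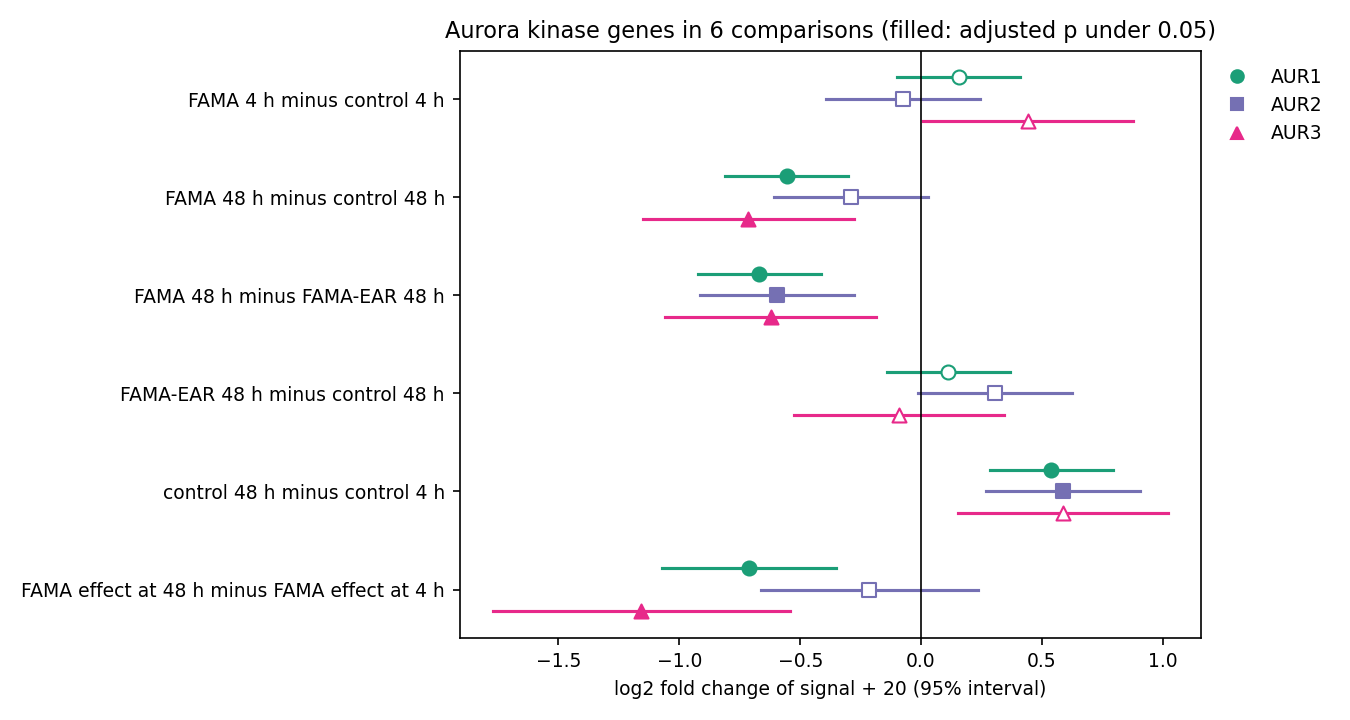
Log2 fold change of signal + 20 (x axis, points with 95% intervals) of AUR1, AUR2 and AUR3 in 6 comparisons (rows). Filled points have an adjusted p under 0.05. All 3 genes are filled and below 0 for FAMA 48 h minus FAMA-EAR 48 h, and none is filled at 4 h or for FAMA-EAR 48 h minus control 48 h.

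At 4 h, no Aurora kinase gene passed the test between FAMA and control seedlings, in a comparison where 2.92% of all probe sets did, 1.15% as higher and 1.77% as lower. AUR1 had signals of 425, 441.6 and 559.6 on the FAMA 4 h arrays, against 395, 395.9 and 479.2 on the control 4 h arrays. AUR2 had 321.6, 278.1 and 210.1 on the FAMA 4 h arrays, against 251.9, 309.6 and 286.1 on the control 4 h arrays. AUR3 had 112.5, 145.9 and 178.9 on the FAMA 4 h arrays, against 88, 115.5 and 98.9 on the control 4 h arrays. The groups overlapped for all 3 genes, and the array that stood apart, the third FAMA 4 h array, gave the highest AUR1 and AUR3 signals and the lowest AUR2 signal of its group.

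The log2 fold change at 4 h was 0.16 for AUR1 (95% interval -0.10 to 0.41; adjusted p = 0.528 in limma) and 0.04 without the third FAMA 4 h array. It was -0.08 for AUR2 (95% interval -0.39 to 0.24; adjusted p = 0.823 in limma) and 0.08 without that array, so its sign rested on 1 array. It was 0.44 for AUR3 (95% interval 0.01 to 0.88; adjusted p = 0.28 in limma) and 0.30 without that array. Over all probe sets, the median change at 4 h was 0.09 on the log2 scale.

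The response to FAMA differed between the 2 times for AUR1 and AUR3. The log2 fold change at 48 h minus that at 4 h was -0.71 ± 0.173 for AUR1 (SE; adjusted p = 0.00732 in limma). It was -1.16 ± 0.295 for AUR3 (SE; adjusted p = 0.0104 in limma). For AUR2 it was -0.21 ± 0.216 (SE; adjusted p = 0.572 in limma). Of all probe sets, 7.05% passed this test as lower, 6.59% as higher and 13.6% in either direction. The median of all probe sets was itself -0.14, and relative to that median the differences were -0.57 for AUR1, -0.08 for AUR2 and -1.02 for AUR3. Without the third FAMA 4 h array, the difference was -0.59 for AUR1 (adjusted p = 0.0143) and -1.02 for AUR3 (adjusted p = 0.0162). Both calls held in all 23 alternatives.

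In seedlings without estrogen, AUR1 and AUR2 were higher at 48 h, on day 7, than at 4 h, on day 5. AUR1 averaged 625.1 ± 75.5 in control 48 h seedlings and 423.4 ± 48.4 in control 4 h seedlings (SD, n = 3 each), a log2 fold change of 0.54 (95% interval 0.28 to 0.79; adjusted p = 0.00761 in limma). AUR2 averaged 432.9 ± 10.1 in control 48 h seedlings and 282.5 ± 29 in control 4 h seedlings (SD, n = 3 each), a log2 fold change of 0.59 (95% interval 0.27 to 0.90; adjusted p = 0.02 in limma). AUR3 averaged 160.6 ± 5.94 in control 48 h seedlings and 100.8 ± 13.8 in control 4 h seedlings (SD, n = 3 each). Its log2 fold change was also 0.59 but did not pass (95% interval 0.15 to 1.02; adjusted p = 0.104 in limma). The 2 groups did not overlap for any of the 3 genes, which is given as a description only.

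Thus 2 of 3 passed, both higher, where 3.37% of all probe sets passed as higher, 3.81% as lower and 7.18% in either direction. The AUR1 call ended without the third control 48 h array (adjusted p = 0.0503). The AUR2 call ended in 3 of 8 processing settings and without any 1 of 5 arrays (each control 48 h array and control 4 h arrays 1 and 3), with adjusted p up to 0.0952, and AUR3 passed only without the third FAMA 4 h array (adjusted p = 0.049). Age and time since transfer cannot be told apart here.

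In FAMA seedlings no Aurora kinase gene passed the test between the 2 times. The contrast of FAMA 48 h over FAMA 4 h was chosen after the data were seen. It gave a log2 fold change of -0.17 for AUR1 (95% interval -0.43 to 0.08, adjusted p = 0.368 in limma). For AUR2 it gave 0.37 (95% interval 0.05 to 0.69, adjusted p = 0.0991 in limma). For AUR3 it gave -0.57 (95% interval -1.01 to -0.14, adjusted p = 0.0617 in limma). The AUR2 and AUR3 intervals, which are not adjusted over probe sets, exclude 0 in opposite directions, so steady levels are not shown. Of all probe sets, 18.9% passed this contrast. Ordered by mean signal, AUR1 was lowest in FAMA 48 h seedlings, followed by control 4 h, FAMA 4 h, control 48 h and FAMA-EAR 48 h seedlings. AUR3 was also lowest in FAMA 48 h seedlings, followed by control 4 h, FAMA 4 h, FAMA-EAR 48 h and control 48 h seedlings. AUR2 was lowest in FAMA 4 h seedlings, followed by control 4 h, FAMA 48 h, control 48 h and FAMA-EAR 48 h seedlings. No pair of neighbours in these orders passed the test for any of the 3 genes. The control 4 h level over the FAMA 48 h level was 0.02 on the log2 scale for AUR1 (95% interval -0.24 to 0.27) and 0.13 for AUR3 (95% interval -0.31 to 0.56).

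Across all 15 arrays, the log2 levels of AUR1 correlated with those of AUR3 at r = 0.72 and with those of AUR2 at r = 0.63, and AUR2 correlated with AUR3 at r = 0.32. Once each group's mean was removed, these values were 0.24, -0.54 and -0.22. The correlations are descriptions over arrays that share their groups and chips. AUR1 and AUR2 are close paralogs, and whether their probe sets share signal was not tested, since probe sequences were not used here.

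The 5 named genes whose levels were most like those of AUR1 across the 15 arrays, among genes of at least median mean signal, had Pearson r of 0.917 to 0.943. They were AT5G07080, AT1G31335, STOMAGEN, AT3G52110 and AT5G56850. STOMAGEN (r = 0.93, and 0.57 once each group's mean was removed) encodes a secreted peptide that promotes stomatal formation. For AUR2 they were UGT78D1, AT4G15830, AT5G19370, TBL36 and ATMYC1, with r of 0.907 to 0.94. UGT78D1 encodes a flavonol glycosyltransferase. For AUR3 they were AT1G06690, AT4G29360, AT1G77250, AT4G02850 and AT3G53950, with r of 0.874 to 0.898. No gene was among the 5 of more than 1 of the 3 kinases. Each 5 were the highest of 5919 candidates for AUR1 and AUR2 and of 5920 for AUR3. Once each group's mean was removed, r was 0.561 to 0.664 for the AUR1 set. It was then 0.534 to 0.851 for the AUR2 set and 0.597 to 0.838 for the AUR3 set.

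Partners of the Aurora kinases were read from a list of cofactors and kinetochore genes. Of 23 listed Aurora cofactors and kinetochore genes, 9 had a named probe set. In FAMA 48 h against control 48 h seedlings, 1 of these 9 fell, none rose and 8 did not pass, a share close to the 11% of all probe sets that passed as lower. The median log2 fold change of the 9 was -0.16, against -0.02 for all probe sets. BUBR1, a protein of the spindle checkpoint, had signals of 89.9, 55.2 and 55.4 on the FAMA 48 h arrays, against 112.7, 127.2 and 119.3 on the control 48 h arrays. Its log2 fold change was -0.71 ± 0.247 (SE; adjusted p = 0.0452 in limma), but the call ended in 12 of 22 alternatives, with adjusted p up to 0.164. A filter on dim probe sets left BUBR1 out of the other one. Without the third FAMA 4 h array, which enters only the estimate of the spread here, 2 of the 9 partner genes fell and none rose. The difference between the FAMA responses of BUBR1 at 48 h and 4 h was -1.33 ± 0.35 (SE; adjusted p = 0.0129 in limma). It passed in all 22, among them the fit without that array. This difference also holds a positive change of BUBR1 at 4 h of 0.62, which did not pass (adjusted p = 0.199 in limma).

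The chromosomal passenger proteins that work with Aurora kinase at centromeres had no call. Borealin (BORR, AT4G39630) had signals of 117.6, 109.4 and 119 on the FAMA 48 h arrays, against 178.4, 156.2 and 164.7 on the control 48 h arrays. These did not overlap, but the log2 fold change of -0.46 did not pass (adjusted p = 0.209 in limma). WYR, the INCENP homolog, is named for its role and had a log2 fold change of 0.08 (adjusted p = 0.945). BUB3.1, a further checkpoint gene, had one of -0.37 (adjusted p = 0.204). At 4 h, where 2.92% of all probe sets passed, and in FAMA-EAR 48 h against control 48 h seedlings, where 3.2% passed, none of the 9 did. Nor did any of the 9 pass in FAMA 48 h against FAMA-EAR 48 h seedlings, where 22.7% of all probe sets passed. In that comparison 8 of the 9 had a negative sign, and BUBR1 had a log2 fold change of -0.35 (adjusted p = 0.391 in limma).

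Among other genes of the cell cycle, few could be read, and their counts at 48 h stand beside 10.6% of all probe sets that passed as higher and 11% as lower. With so few genes measured, the counts describe single genes and not the lists. Of 56 listed G2 and M phase genes, 3 had a named probe set and 1 of these rose at 48 h, none fell and the median log2 fold change was -0.07. The probe set read for the listed TRM7 is named TRM22 in the annotation, so it may not measure the listed gene. Its value of -0.07 is that median. The gene that rose, KEU (log2 fold change 0.32, adjusted p = 0.0324 in limma), encodes a protein of vesicle fusion at the cell plate that also acts outside division, and its call ended in 7 of 23 alternatives, among them those without FAMA 48 h array 1 or 2 or control 48 h array 1 or 3. Without the third FAMA 4 h array, 1 of the 3 also fell. SCL28 (AT1G63100), a transcription factor of the G2 and M phase, had a log2 fold change of -0.59 that did not pass (adjusted p = 0.0713). A named probe set was present for 4 of 41 listed DNA replication and S phase genes. Among them 2 fell, none rose and the median was -0.34. PRL, which encodes a subunit of the replicative helicase, fell by 0.39 on the log2 scale (adjusted p = 0.0414 in limma), a call that ended in 7 of 23 alternatives with adjusted p up to 0.296. Without the second control 48 h array the PRL value was -0.21, and the call also ended without each FAMA 48 h array. SGA2, which encodes a histone chaperone, fell by 0.41 on the log2 scale (adjusted p = 0.0189 in limma), a call that ended in 4 of 23, those without FAMA 48 h array 1 or 2 or control 48 h array 1 or 3. Against FAMA-EAR 48 h seedlings, where 22.7% of all probe sets passed, none of these 3 and none of these 4 genes did. There PRL had a log2 fold change of -0.21 (adjusted p = 0.31 in limma) and SGA2 one of -0.23 (adjusted p = 0.207 in limma). None of the 11 listed G1 cyclins and CDKA had a named probe set under the rule used here. That rule did not take a symbol written with a semicolon as naming 1 gene. Cyclin and kinase genes named that way, in this list and the others, could not be read even if the array holds their probe sets. Many listed genes whose symbols hold no semicolon had no named probe set either. Of the 22746 tested probe sets, 9233 were not taken as naming 1 gene, whereas 503 probe sets name several.

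Of 18 listed cell cycle inhibitors and endocycle genes, 4 had a named probe set, 1 fell, none rose and the median was -0.13. The one that fell was SIM, a cyclin-dependent kinase inhibitor that limits division in trichomes. SIM had signals of 386.5, 323.9 and 377.7 on the FAMA 48 h arrays, against 566.4, 422.7 and 508.2 on the control 48 h arrays. All FAMA arrays were below all control arrays. The log2 fold change was -0.43 (adjusted p = 0.00951 in limma), and this did not pass when FAMA 48 h array 2 (adjusted p = 0.0657) or control 48 h array 1 (adjusted p = 0.0706) was left out. Against FAMA-EAR 48 h seedlings it was -0.79 (adjusted p = 2.83e-05 in limma).

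Genes of microtubules, the polymer of the spindle on which Aurora kinases act, were read from a further list. This list of 10 was taken from gene names in the annotation after the files were opened, and all 10 had a probe set. At 48 h, 3 rose, 1 fell and 6 did not pass, with a median log2 fold change of 0.06, where 10.6% of all probe sets passed as higher and 11% as lower. The tubulin genes TUB1 (log2 fold change 0.50, adjusted p = 0.00382 in limma), TUB9 (0.39, adjusted p = 0.00102) and TUB7 (0.33, adjusted p = 0.00311) rose in FAMA seedlings. The TUB7 call ended with equal array medians (0.31, adjusted p = 0.0514 in limma), and those of TUB1 and TUB9 held in all 23 alternatives. TUB9 had signals of 2658.9, 2824.4 and 2655.6 on the FAMA 48 h arrays, against 2186.2, 1930.6 and 2095 on the control 48 h arrays. In FAMA 48 h against FAMA-EAR 48 h seedlings, 1 of the 10 genes passed as higher and 2 as lower, beside 11.1% and 11.6% of all probe sets.

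KINESIN-12B, a motor protein of the phragmoplast, the microtubule array that builds the cell plate, was the microtubule gene that fell. It had signals of 122.6, 127.6 and 136.9 on the FAMA 48 h arrays, against 180.6, 214.1 and 208 on the control 48 h arrays. The groups did not overlap, as for AUR1 and AUR3. Its log2 fold change was -0.57 ± 0.179 (SE; adjusted p = 0.0266 in limma), a call that ended without each FAMA 48 h array and without control 48 h array 2 or 3, with adjusted p up to 0.0892. Against FAMA-EAR 48 h seedlings it was -0.53 (adjusted p = 0.0374 in limma; ended in 5 of 23), and in control seedlings it was 0.71 for 48 h over 4 h (adjusted p = 0.0161 in limma; ended in 4 of 23). The difference between its FAMA responses at 48 h and 4 h was -1.20 ± 0.253 (SE, adjusted p = 0.00242 in limma) and passed in all 23. That difference also holds a positive change at 4 h of 0.63, which did not pass (adjusted p = 0.061 in limma). It is therefore not a measure of the 48 h fall alone.

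**Figure D4:**
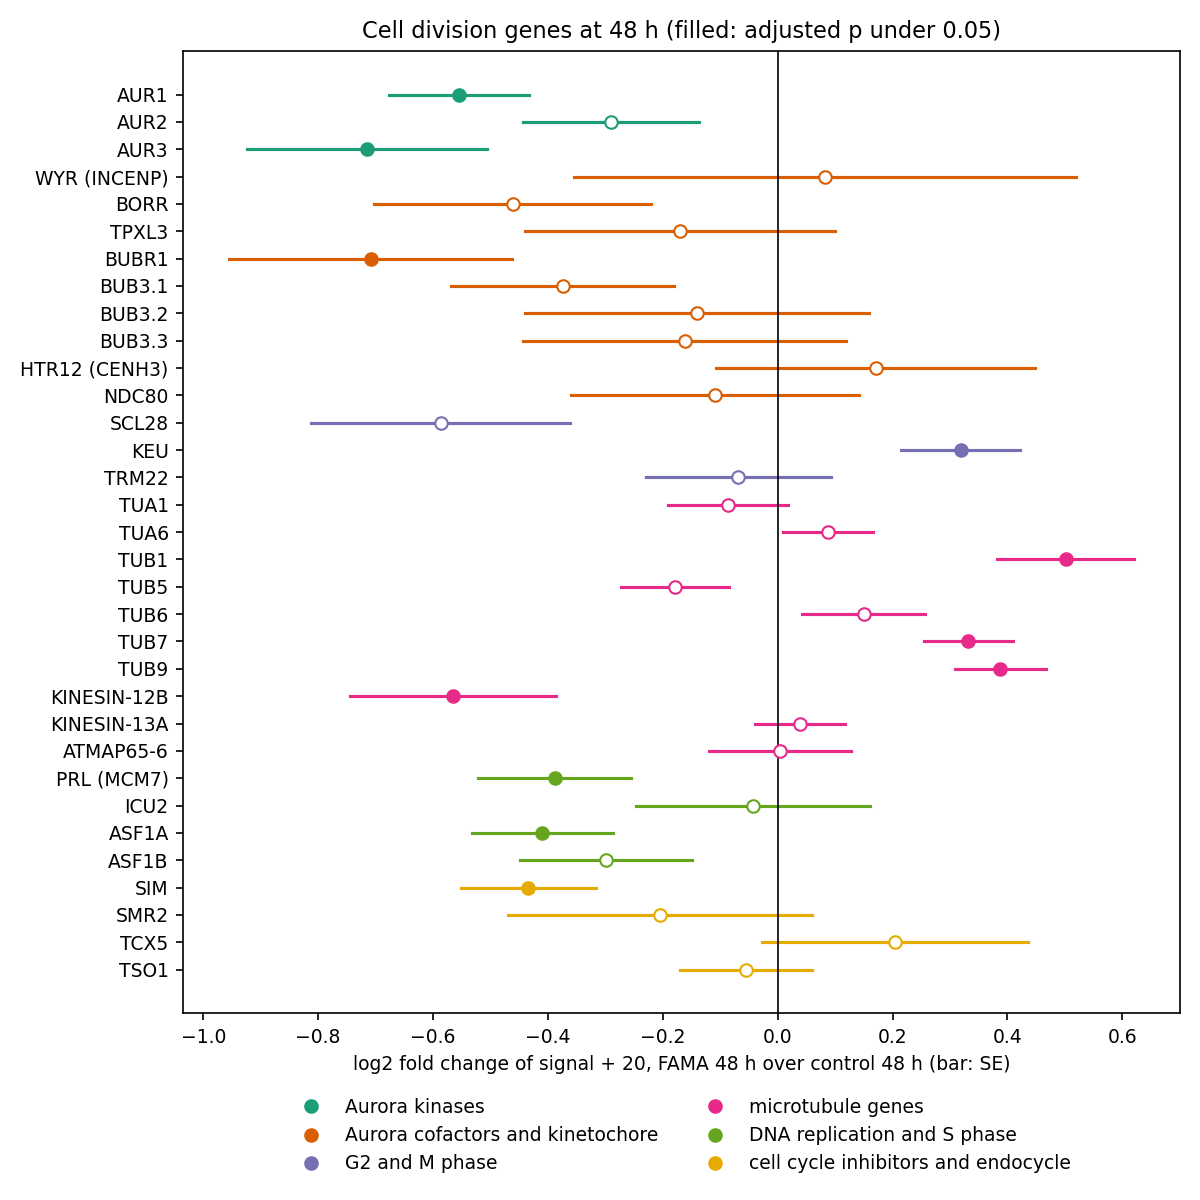
Log2 fold change of signal + 20 (x axis, points with SE bars) in FAMA 48 h over control 48 h seedlings for the Aurora kinase genes and the measured genes of 5 division lists (rows, coloured by list). Filled points have an adjusted p under 0.05. AUR1, AUR3, BUBR1, KINESIN-12B, PRL, ASF1A (SGA2) and SIM are filled below 0, and KEU, TUB1, TUB7 and TUB9 are filled above 0.

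Genes of the guard cell and stomatal lists were read as well. Of 4 measured guard cell genes, 3 rose and none fell, where 10.6% of all probe sets passed as higher. Their summed signal was 10278.5 to 12606 on the FAMA 48 h arrays, 3296.7 to 3419.4 on the FAMA-EAR 48 h arrays and 3149.1 to 3743.7 on the control 48 h arrays, and 1 gene, GC1, made up most of it. GC1 (AT1G22690), a guard cell marker, averaged 10800 ± 1330 in FAMA 48 h seedlings and 3020 ± 223 in control 48 h seedlings (SD, n = 3 each). The guard cell cation transporter CHX20 averaged 469 ± 10.5 in FAMA 48 h seedlings and 231 ± 52.8 in control 48 h seedlings (SD, n = 3 each), a log2 fold change of 0.98 (adjusted p = 0.000302 in limma). BLUS1 (AT4G14480), which relays blue light to stomatal opening, averaged 362 ± 58.3 in FAMA 48 h seedlings and 182 ± 35.4 in control 48 h seedlings (SD, n = 3 each), a log2 fold change of 0.92 (adjusted p = 0.0011 in limma). PME6 (AT1G23200), a cell wall enzyme of guard cells, had a log2 fold change of 0.34 that did not pass (adjusted p = 0.404).

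Of 3 measured genes of the stomatal lineage list, 2 fell and none rose, where 11% of all probe sets passed as lower. Their summed signal was 568.4 to 661.6 on the FAMA 48 h arrays, 1005.2 to 1140 on the FAMA-EAR 48 h arrays and 1052.6 to 1188.9 on the control 48 h arrays. Most of this sum was STOMAGEN, which fell (log2 fold change -0.83, adjusted p = 5.64e-06 in limma) but is made in the mesophyll and acts on the lineage from outside, so it does not mark lineage cells. SPCH, the transcription factor that starts the stomatal lineage and drives its divisions, fell too (log2 fold change -0.76, adjusted p = 0.00573 in limma). MUTE, which acts between SPCH and FAMA, had a log2 fold change of -0.65 that did not pass (adjusted p = 0.344). Its signals were low, at 5.3 to 22.9 on the FAMA 48 h arrays and 8.6 to 56.3 on the control 48 h arrays.

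Of 3 measured meristem genes, none passed, and their summed signal was 78 to 117.9 on the FAMA 48 h arrays, 102.2 to 129.8 on the FAMA-EAR 48 h arrays and 70.2 to 81.7 on the control 48 h arrays. Most of this sum was UPB1, which averaged 78.2 in FAMA 48 h, 99.4 in FAMA-EAR 48 h and 61.3 in control 48 h seedlings. CLV3 and BBM, the defining meristem markers that could be read, had signals of 1.8 to 29.5 on the 48 h arrays. Measures of RNA quality also differed between groups, but the newer and older control sets did not show the same pattern. The mean 3'/5' log2 ratio of the newer actin and GAPDH control sets was 0.191 to 0.214 on the FAMA 48 h arrays, 0.533 to 0.731 on the FAMA-EAR 48 h arrays and 0.297 to 0.495 on the control 48 h arrays. In the older control sets the FAMA 48 h range of 1.22 to 1.54 lay within the control 48 h range of 0.913 to 1.57, and that of FAMA-EAR 48 h was 1.93 to 2.07. The part of these genes of other cells and of RNA quality in the Aurora results was not tested.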

How the data were processed

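The deposited values are MAS5 signal intensities on a linear scale, 1 per probe set and array, per the submitters' processing notes. No source used here gives the MAS5 settings. The trimmed mean of each array was 499.876 to 501.106, so the deposited intensity values had been scaled to a common mean. MAS5 signals of dim probe sets are noisy, and detection calls were not used.

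Of 22810 probe sets, 64 for controls were dropped and 22746 tested. Names came from the platform annotation: 13513 probe sets name 1 gene and 503 several. Symbols with a semicolon were not taken as naming 1 gene, which would also leave out single genes whose own symbol holds one. The values were analysed as log2(signal + 20), the offset being the median signal of 197.4 divided by 10 and rounded. limma 3.58.1 in R 4.3.3 fitted 1 mean per group with a variance trend over all 15 arrays (10 residual degrees of freedom), with two-sided tests and Benjamini-Hochberg adjustment over all probe sets. The script was tested on simulated data, where recovery of the planted changes missed the first pass mark, which was then lowered, so the test is not used as support. The number of arrays limits the precision.

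The 3 genes and the 8 gene lists (204 genes, 30 measured) were chosen with earlier results of these data known, and the list of microtubule genes was added later. The 30 include the probe set named TRM22, which was read for the listed TRM7. Named were the 3 kinases, FAMA, list members past the threshold or among the 3 largest changes of a list, and the 5 genes most alike. WYR was named for its role. Unnamed members of the division lists are shown in the plot of division genes. The alternatives for single list genes were run after their calls had been seen. Alternatives were other offsets, equal medians, quantile normalization, a filter on dim probe sets, no variance trend, only the groups compared, a replicate block and leaving out each array. Same-numbered arrays of different groups did not deviate together, so the numbers were not used as pairs.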

Additional observations from a re-analysis of the deposited data

Results flagged for a closer look

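The response of AUR1 to FAMA differed between the 2 times by a test of the difference itself. The log2 fold change of FAMA over control at 48 h minus that at 4 h was -0.711 (adjusted p = 0.00732 in limma). The same test passed for AUR3, with a difference of -1.157 (adjusted p = 0.0104 in limma).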

How the results depend on the processing

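Each result was recomputed under 8 processing settings and with each of 15 arrays left out. The FAMA 48 h over control 48 h call of AUR1, its call against FAMA-EAR 48 h, and the differences between 48 h and 4 h of AUR1 and AUR3 kept their direction and passed in all of them. The AUR2 change from control 4 h to control 48 h did not pass with equal array medians (0.59, adjusted p = 0.0603), quantile normalization (0.59, adjusted p = 0.0636) or no variance trend (0.59, adjusted p = 0.066). The causes of these changes were not tested.

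With 1 array left out, log2 fold changes ranged as follows where a call or a sign changed. FAMA 48 h over control 48 h ranged from -0.77 to -0.64 for AUR3. FAMA 48 h over FAMA-EAR 48 h ranged from -0.72 to -0.48 for AUR2 and from -0.78 to -0.50 for AUR3. Control 48 h over control 4 h ranged from 0.47 to 0.64 for AUR1, from 0.51 to 0.65 for AUR2 and from 0.51 to 0.67 for AUR3. FAMA 4 h over control 4 h ranged from -0.20 to 0.08 for AUR2, the positive value (0.0815) being that without the third FAMA 4 h array. FAMA-EAR 48 h over control 48 h ranged from -0.21 to 0.07 for AUR3, the positive value being that without the third FAMA-EAR 48 h array. Neither of these differences had passed.

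The number of probe sets past the threshold in FAMA 4 h against control 4 h was 664, against 303 with no variance trend, 207 with only the groups compared and 342 to 1077 with 1 array left out. In FAMA-EAR 48 h against control 48 h it was 729, against 463 with equal medians, 322 with no variance trend and 358 to 1176 with 1 array left out. In control 48 h against control 4 h it was 1633, against 941 with no variance trend and 1041 to 2264 with 1 array left out. With equal medians, 111 rose and 451 fell at 4 h, against 261 and 403, and 1444 and 964 differed up and down between times, against 1500 and 1603.

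Replicate numbers were tried as a block. Deviations from group means correlated at -0.06 to 0.04 between arrays of the same number and at -0.09 to 0.08 between arrays of different numbers. The replicate block changed no Aurora call and gave 4901 probe sets for FAMA 48 h against control 48 h, in place of 4913. It ended the BUBR1 call (adjusted p = 0.0585).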
